A study of Mus musculus with 35 samples.

Results

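The clones compared were 10 iPS clones derived from osteo-progenitors (OP-iPS) and 10 derived from tail tip fibroblasts (TTF-iPS), taken by their sample labels, which are 20 of the 35 arrays of the series. Each source contributed 5 clones induced with 4 factors, Oct3/4, Sox2, Klf4 and c-Myc (4F), and 5 induced without c-Myc (3F). All source cells came from 6-week-old mice that carried a Nanog reporter with GFP and puromycin resistance, and all were infected with pMX retroviruses, with DsRed as a marker of infection. OP cells were sorted from crushed bone as CD45-, Ter119-, PDGFRα- and Sca-1- cells, and the fibroblasts were grown out from tail pieces and used at an early passage. Every clone had been picked as GFP+/DsRed- after puromycin selection and grown on SNL feeder cells. RNA of 1 array per clone was labelled with Cy3 and hybridized to an Agilent mouse array. The labels name no donor animal, and p-values measure the spread between clones.

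Reprogramming by these factors replaces the expression programme of a somatic cell by that of a pluripotent cell, in which Pou5f1 (Oct3/4), Sox2 and Nanog hold each other active. Mesenchymal cells of the adult body keep a record of their position in the pattern of Hox genes that they express, and bone-forming cells add genes of the mineralized matrix. The comparison asked which of 24928 probes had a level in the clones that followed the source cell. Levels are log2 of the intensity relative to the 75th percentile of the array, so that 0 is the level of that percentile and 1 unit is a 2-fold step. Differences are OP-iPS minus TTF-iPS with the factor number as a covariate, and a probe was called when its adjusted p was under 0.05 and its difference at least 2-fold.

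Of the clones, 4F-OP-iPS #2 stood apart. It held the highest or the lowest value of the 20 clones at 39.6% of the tested probes, against 1.85% to 22.0% for the other clones, and had the lowest weight (0.140) when arrays were weighted by their fit. Its Pou5f1 was -2.04, the lowest of the 20 clones, and its Nanog was -3.38. On chromosome 4 the median level of this clone, taken against the median clone and against all other chromosomes, was lower by a log2 difference of -0.64, with 87.7% of 1293 probes below the level elsewhere. On chromosome 14 it was higher by 0.59, with 78.1% of 732 probes above. Of 400 such medians (20 clones by 20 chromosomes), 5 reached 0.20 in size, and the median size was 0.0159. The others were chromosome 1 in 4F-OP-iPS #1 (0.37) and chromosome 11 in 3F-OP-iPS #4 (0.24) and in 3F-TTF-iPS #5 (0.24). DNA copy number was not measured here. The results are therefore given with all clones and, where it moved them, without 4F-OP-iPS #2.

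**Figure D1:**
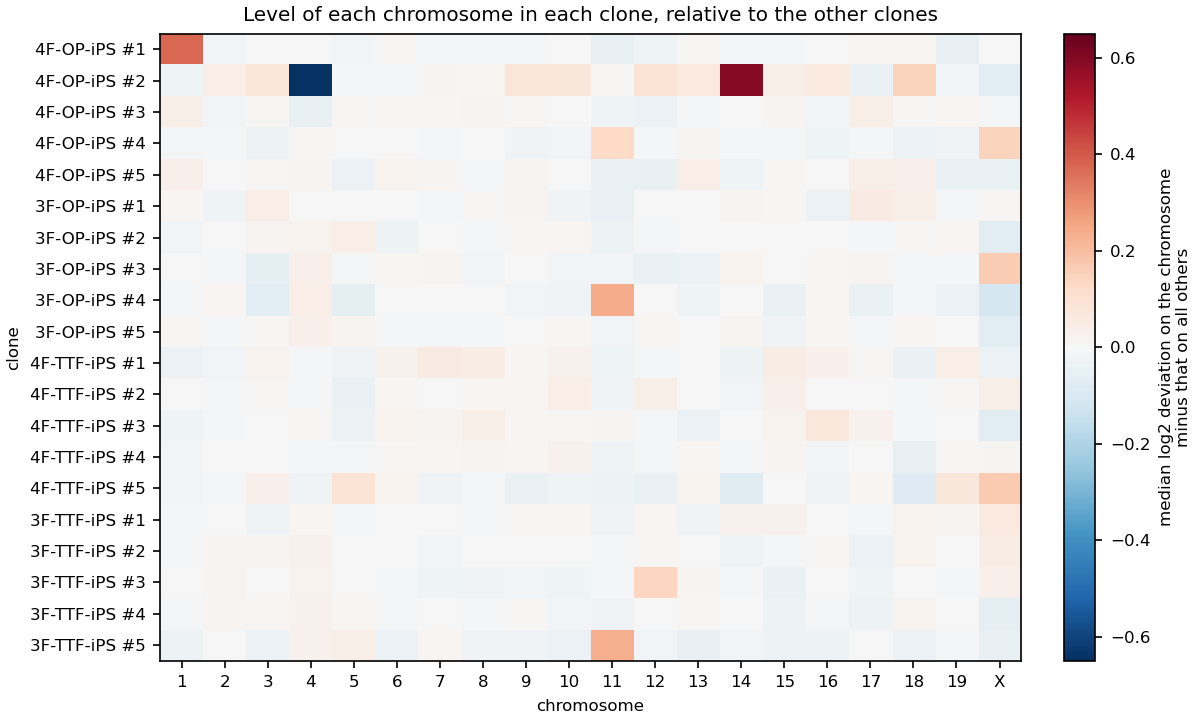
Rows are the 20 clones and columns the chromosomes, and the colour is the median log2 deviation of the probes on a chromosome from the median clone, minus that on all other chromosomes. The darkest cells are chromosome 4 (-0.64) and chromosome 14 (0.59) of 4F-OP-iPS #2.

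c-Myc was measured against the label in part of the clones. The array carries a probe inside the open reading frame of Myc and one that crosses its stop codon, both of which read RNA of a coding-sequence transgene as well as the endogenous gene. A further probe lies behind the coding sequence and was flat, with -0.97 to 0.53 in OP-iPS and -0.54 to 0.82 in TTF-iPS clones. The coding probes are printed because the Myc level that is set against the 4F or 3F label is read from them. The stop codon is in capitals (5′ to 3′, plus strand of mouse build mm7, at chr15:62063665-62063724 and chr15:62064157-62064216).
Myc probe in the open frame: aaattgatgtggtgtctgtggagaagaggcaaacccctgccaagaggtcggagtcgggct
Myc probe across the stop codon: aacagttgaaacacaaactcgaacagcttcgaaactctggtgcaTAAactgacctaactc

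At the stop-codon probe of Myc the 4F-TTF-iPS clones had 0.83 to 2.48 and the 3F-TTF-iPS clones -1.50 to -0.56, without overlap. Among 3F-OP-iPS clones, however, #1 and #3 had 3.33 and 2.30, against -0.78, -1.49 and -0.90 in the other 3. The probe inside the frame gave the same order, with 1.58 and 0.53 in 3F-OP-iPS #1 and #3 and -4.21 to -3.00 in the other 3F-OP-iPS clones. The Myc level of the libraries labelled 3F-OP-iPS #1 and #3 thus went against their labels. On the stop-codon probe 4F-OP-iPS #2 and #4, at -0.27 and 0.39, lay between the 3F- and the 4F-TTF-iPS clones. The other 4F-OP-iPS clones had 3.26 to 5.19. A 4F clone whose Myc transgene was silenced would read low as well, so a low level does not go against a 4F label. Silencing was not tested here. Without 3F-OP-iPS #1 and #3, 7 probes were called in place of 2.

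Genes of the Y chromosome were not expressed in the same number of clones of each source. Ddx3y and Eif2s3y, a helicase and a translation factor encoded on the Y chromosome, were above background in the same clones: 7 of 10 OP-iPS clones, all but 4F-OP-iPS #4 and, among the 3F-OP-iPS clones, #1 and #3, and 1 of 10 TTF-iPS clones, 4F-TTF-iPS #3. Where measured, Ddx3y was -1.95 to -0.12 in OP-iPS clones and -0.63 in 4F-TTF-iPS #3. Neither the primary OP nor the primary TTF array had Ddx3y above background (-8.82 and -8.91). Source and sex thus overlap in part in these clones. The difference was also fitted with Ddx3y as a covariate, taken as above background or not in each clone. This alternative was chosen after seeing the data.

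Xist, the RNA that coats the inactive X chromosome, was above background in 5 OP-iPS and 9 TTF-iPS clones. Its level had a median of -5.95 in OP-iPS (range -8.29 to 3.19) and of 1.12 in TTF-iPS clones (-7.33 to 3.22), and both ranges overlapped. The difference of -4.11 had an adjusted p of 0.365, and with Ddx3y as a covariate it was 1.04, with the opposite sign. BC021831, a transcript named after its values were seen, was above background in all 10 TTF-iPS clones (-2.52 to -0.41) and in OP-iPS only in the 3 clones without Ddx3y (-3.56 to -1.76). Its difference was -4.90 with all clones, with an adjusted p of 0.0627, and -4.77 without 4F-OP-iPS #2, where it was called (adjusted p = 0.0109). Neither size is exact, since most OP-iPS clones were not above background. The probe was tested only through the TTF-iPS groups, where it was high, so that the filter favoured its direction and the call carries no weight.

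**Figure D2:**
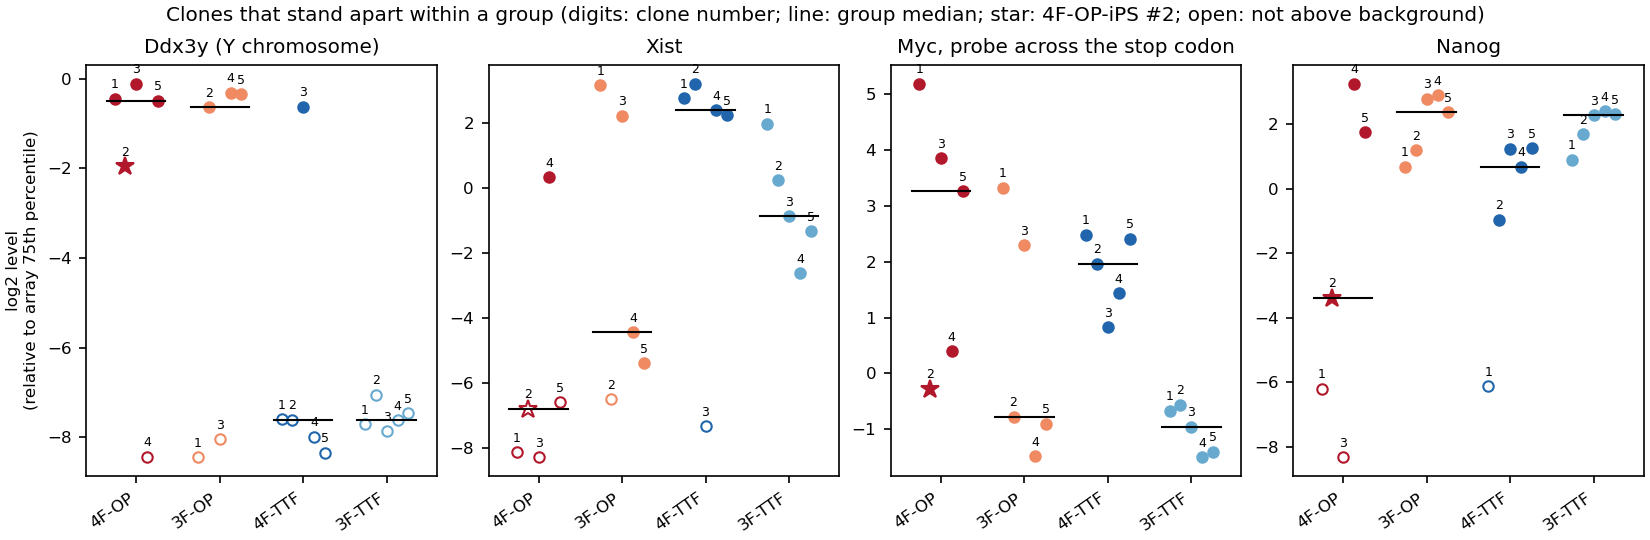
The vertical axes are log2 levels of 4 probes, points are single clones with their numbers, lines are group medians, and open points were not above background. Ddx3y separates 7 OP-iPS clones and 4F-TTF-iPS #3 from the others, the stop-codon probe of Myc places 3F-OP-iPS #1 and #3 at 3.33 and 2.30, and Nanog was not above background in 3 clones.

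Further facts hold for all results. Nanog and Sox2 were not above background in 3 clones of the 4F groups, of which 4F-TTF-iPS #1 was the one from TTF and 4F-OP-iPS #1 and #3 were from OP cells. The 20 arrays were scanned in 1 session on 7 slides, of which a single one held both sources (3F-OP-iPS #3, #4 and #5 with 3F-TTF-iPS #1), so that on the other slides slide and source cannot be told apart. On the arrays 57.0% to 65.7% of probes were well above background, and the number of clones limits the precision. In the primary cells Ibsp and Sp7, markers of bone, fitted the labels, at 3.55 and 0.83 in OP cells and not above background in TTF. Runx2, Bglap and Alpl were above background in both, at 1.27, 4.15 and 4.40 in OP and -1.82, -3.55 and -5.01 in TTF cells. Spp1 was higher in TTF (8.05) than in OP cells (7.75). The defining markers of the sort fitted less well, since Pdgfra (1.48) and Ly6a, which encodes Sca-1 (3.44), were above background in the OP array. The TTF array, in turn, carried Ptprc, which encodes CD45, at 4.05, and the part of such cells in the results was not tested.

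Between all 10 OP-iPS and all 10 TTF-iPS clones, 2 of 24928 probes were called (0.00802%), Foxj3 and Gja5, both lower in OP-iPS clones. An adjusted p under 0.05 without the fold minimum added Cap1, Fbxo44 and Rragd, which were also lower in OP-iPS clones and are named after their values were seen (5 probes, 0.0201%). No probe was called higher. At an unadjusted p under 0.05 there were 2826 probes (11.3%), of which 1147 were higher (4.6%) and 1679 lower (6.74%) in OP-iPS clones. The values of the 2 sources did not overlap in 2 probes higher in OP-iPS (0.00802%) and 3 probes lower in OP-iPS clones (0.0120%).

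Foxj3 encodes a forkhead transcription factor. Its probe at chr4:119002941-119003000 had a lowest, median and highest level of -5.80, -5.15 and -4.09 in OP-iPS clones, and of -3.97, -3.63 and -3.03 in TTF-iPS clones. All OP-iPS clones were thus below all TTF-iPS clones, and the closest of them was 4F-OP-iPS #5. The difference was -1.52 ± 0.18 (SE), or 2.87-fold, with an adjusted p of 0.000626, and it was -1.58 without 4F-OP-iPS #2. 3F-OP-iPS #4 was not above background. On the slide that both sources share, the 3F-OP-iPS clones had -5.19, -5.80 and -5.23, and 3F-TTF-iPS #1 had -3.03. With Ddx3y as a covariate Foxj3 passed as well, at an adjusted p of 0.0274. With the slide as a fixed block the difference was -2.38, which rests on the shared slide alone, with its single TTF-iPS clone.

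The difference in Foxj3 was seen at this probe and not at a brighter one. The brighter probe of the gene, at chr4:119005366-119005425, had 1.70 to 2.37 in OP-iPS and 1.62 to 2.55 in TTF-iPS clones, with a difference of 0.03 and an adjusted p of 0.912. Of the clones outside the comparison, 4F-PαS-iPS #3, 3F-PαS-iPS #1 and 3F-PαS-iPS #2, derived from PDGFRα+ Sca-1+ mesenchymal stem cells, had -3.76, -4.02 and -3.40 at the changed Foxj3 probe, and the other PαS-iPS clones -5.65 to -4.91. Those 3 clones are the PαS-iPS clones with Ddx3y above background, whereas among TTF-iPS clones the high level was found in clones with and without it. ES cells had -4.49 and -4.93.

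Cap1 encodes a protein that binds actin and recycles its monomers. Its level was -0.70, -0.23 and 0.71 (lowest, median and highest) in OP-iPS clones, and 0.41, 0.96 and 1.17 in TTF-iPS clones. Of the OP-iPS clones, 9 of 10 lay below the lowest TTF-iPS clone, and the exception was 4F-OP-iPS #5. The difference was -0.997 ± 0.108 (SE), just short of 2-fold, with an adjusted p of 0.000415, the smallest of all probes. On the shared slide the 3F-OP-iPS clones had -0.38, -0.70 and -0.42, and 3F-TTF-iPS #1 had 0.67. With Ddx3y as a covariate Cap1 passed too (adjusted p = 0.0274). With the slide as a fixed block, which rests on the shared slide alone, its difference was -1.17. The Cap1 probe is printed because its position, chr4:122304855-122306630 on the minus strand, is longer than the probe itself, as for a probe that crosses an intron, and because its sequence holds no stop codon in 1 reading frame.
Cap1 probe: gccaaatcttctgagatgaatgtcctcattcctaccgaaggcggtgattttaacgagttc

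Gja5 encodes connexin 40, a protein of gap junctions. The lowest, median and highest level was -4.20, -3.52 and -2.67 in OP-iPS clones, and -2.48, -2.27 and -1.74 in TTF-iPS clones, without overlap. The difference was -1.23 ± 0.16 (SE), or 2.34-fold, with an adjusted p of 0.00186. On the shared slide the 3F-OP-iPS clones had -2.67, -3.53 and -3.26, and 3F-TTF-iPS #1 had -2.12. With Ddx3y as a covariate the difference in Gja5 was -0.94 and its adjusted p 0.140, so that the call was lost. The slide as a fixed block, which rests on the shared slide alone, gave -1.04. The other Gja5 probe tested, which was dimmer, had a difference of -0.18 and an adjusted p of 0.887.

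Fbxo44 encodes an F-box protein that selects substrates for ubiquitination. One probe had -4.35, -3.55 and -3.26 in OP-iPS and -3.30, -2.79 and -2.56 in TTF-iPS clones (lowest, median and highest), so that the ranges met only at their ends. Its difference was -0.75 (adjusted p = 0.0412), and a second probe had -0.74 (adjusted p = 0.0761). Rragd, a Rag GTPase that signals amino acid supply to mTORC1, had -3.69, -3.37 and -3.10 in OP-iPS and -3.10, -2.77 and -2.03 in TTF-iPS clones. The Rragd values did not overlap, although the ends agree after rounding, and the difference was -0.67 (adjusted p = 0.0465). Both brighter probes of Rragd had differences of -0.40 and -0.43 that did not pass (adjusted p = 0.577 and 0.534). Fbxo44 passed at an adjusted p under 0.05 only in part of the alternatives tried, as did Rragd, and with Ddx3y as a covariate they had 0.282 and 0.276.

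**Figure D3:**
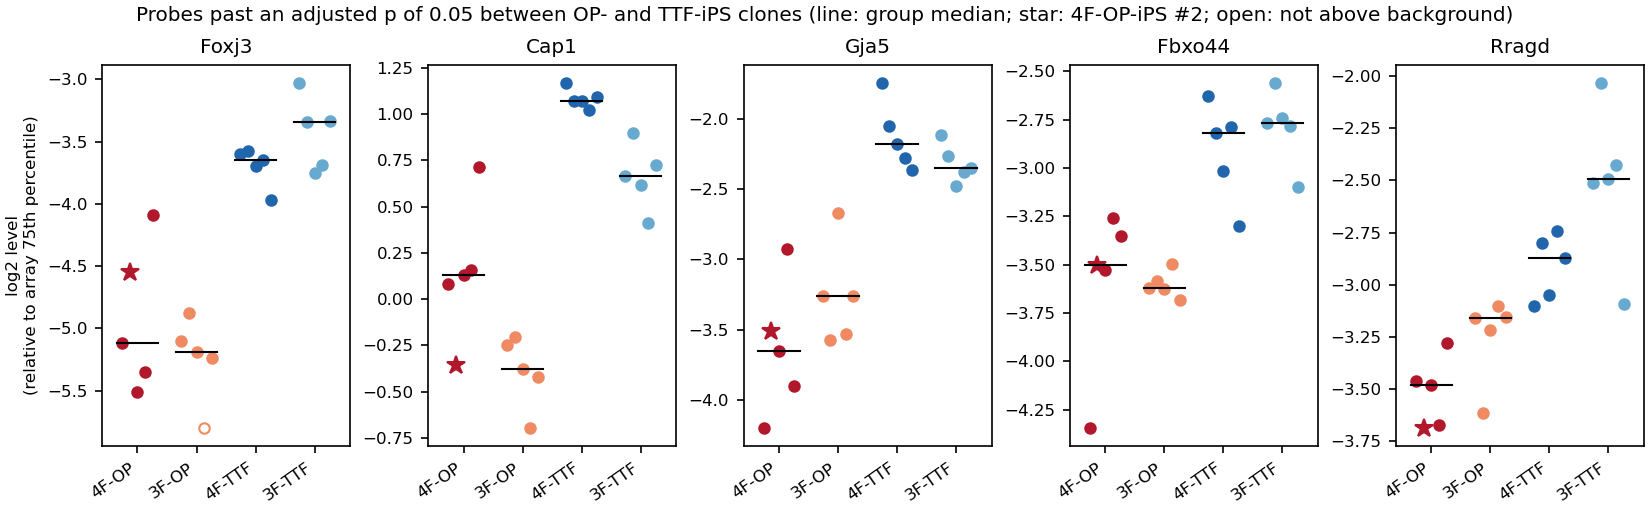
The vertical axes are log2 levels of the probes of Foxj3, Cap1, Gja5, Fbxo44 and Rragd, points are single clones of the 4 groups, lines are group medians, and the star is 4F-OP-iPS #2. The OP-iPS clones lie below the TTF-iPS clones, with 1 clone above in Cap1 (0.71) and a contact at the ends in Fbxo44.

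Clones labelled 4F and 3F were also compared separately, although 3F-OP-iPS #1 and #3 had Myc at the level of 4F clones. Between 4F-OP-iPS and 4F-TTF-iPS clones 1 probe was called (0.00401%), Gja5, with a difference of -1.52 and an adjusted p of 0.0210. Between 3F-OP-iPS and 3F-TTF-iPS clones 2 probes were called (0.00802%), Foxj3 (-1.81, adjusted p = 0.0107) and Cap1 (-1.05, adjusted p = 0.0276). Without 3F-OP-iPS #1 and #3 no probe was called between 3F clones in limma (833 had an unadjusted p under 0.05), and Foxj3 (-1.88) and Cap1 (-1.11) had adjusted p of 0.161 and 0.191. The source difference itself was not called different between 4F and 3F clones for any probe in limma, where 1092 probes had an unadjusted p under 0.05 (4.38%). For Gja5, called in 4F clones alone, the test of that difference gave an unadjusted p of 0.0666, and for Foxj3 it gave 0.0968. In the same 20 clones, 4F and 3F clones of both sources together differed in 2273 probes (9.12%).

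Of the 5 probes that passed an adjusted p under 0.05, all but that of Gja5 lie on chromosome 4. At an unadjusted p under 0.001, 14 probes of chromosome 4 were lower and 1 higher in OP-iPS clones, of 1518 tested, whereas over all 24572 probes with a position 68 were lower and 53 higher. On chromosome 14 the direction was opposite, with 16 higher and 2 lower of 862 tested. These chromosomes are the ones on which 4F-OP-iPS #2 departed as a whole, in the same directions. Without that clone, 36 of the 1518 probes of chromosome 4 were lower at that p (2.37%), the same share as over all probes (582, or 2.37%). On chromosome 14 the higher probes then made up 2.20%, against 0.733% over all probes. An adjusted p under 0.05 without 4F-OP-iPS #2 was reached by 1321 of all tested probes (5.3%).

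The chromosome 4 probes include both probes of Ccne2, a cyclin of the entry into S phase (-0.62 and -0.57), Stil, a centriole protein (-0.58), Atp6v0b, a subunit of the vacuolar proton pump (-0.45), and both probes of Fbxo2, a neighbour of Fbxo44 (-1.20 and -1.15). Rbbp4, a histone chaperone, was the one that was higher (0.30). On chromosome 14 they include Tmem260 (0.99), Ttc5 (0.74), Slc7a7, an amino acid transporter (0.69), both probes of Pnp, a purine phosphorylase (0.53 and 0.54), Mettl17 (0.59) and Pck2, the mitochondrial PEP carboxykinase (0.40), and the ones that were lower were Dleu2 (-0.91) and Rcbtb2 (-0.71). None of those named here passed an adjusted p under 0.05 with all clones, and they were chosen after their values were seen. Without 4F-OP-iPS #2 all of them passed (adjusted p of 0.0266 or lower), where 5.3% of all tested probes did. Their sizes were then 0.99 for Tmem260, 0.74 for Slc7a7, and -1.39 and -1.33 for Fbxo2. Both probes without overlap that were higher in OP-iPS clones, Cab39l (0.44, adjusted p = 0.0757) and Ap5m1 (0.37, adjusted p = 0.131), lie on chromosome 14 too. Cab39l had 0.95 to 1.53 in OP-iPS and 0.46 to 0.92 in TTF-iPS clones, but its other probes had differences of 0.01 and -0.12. The brighter probes of Acin1 and Ttc5 likewise had 0.03 and -0.21, whereas a dimmer probe of each had 0.64 and 0.74.

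The count of calls rested on 1 clone. Without 4F-OP-iPS #2, 339 of 24928 probes were called (1.36%), which name 283 genes or transcripts: 68 were higher (0.273%) and 271 lower (1.09%) in OP-iPS clones. At an unadjusted p under 0.05 there were 5812 probes (23.3%), against 2826 with the clone. Each of the 339 probes had the same sign within 4F clones, within 3F clones and in the fit of all 20 clones. Their choice by the difference in these same clones favours such a match. All but 2 of them were not called in that fit, so that an opposite level of 4F-OP-iPS #2 in such probes follows from how they were chosen. With array weights, which kept all 20 clones and gave 4F-OP-iPS #2 the lowest weight, 227 of the 339 were called. Leaving out any other clone gave 2 to 12 calls. The fit without 4F-OP-iPS #2 was chosen after seeing the data, and its calls moved with other choices. With Ddx3y as a covariate there were 43 calls, and without the 3 clones low in Sox2 and Nanog there were 29. In either case 27 of the 339 were among them. Without 3F-OP-iPS #1 and #3 there were 168 calls.

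**Figure D4:**
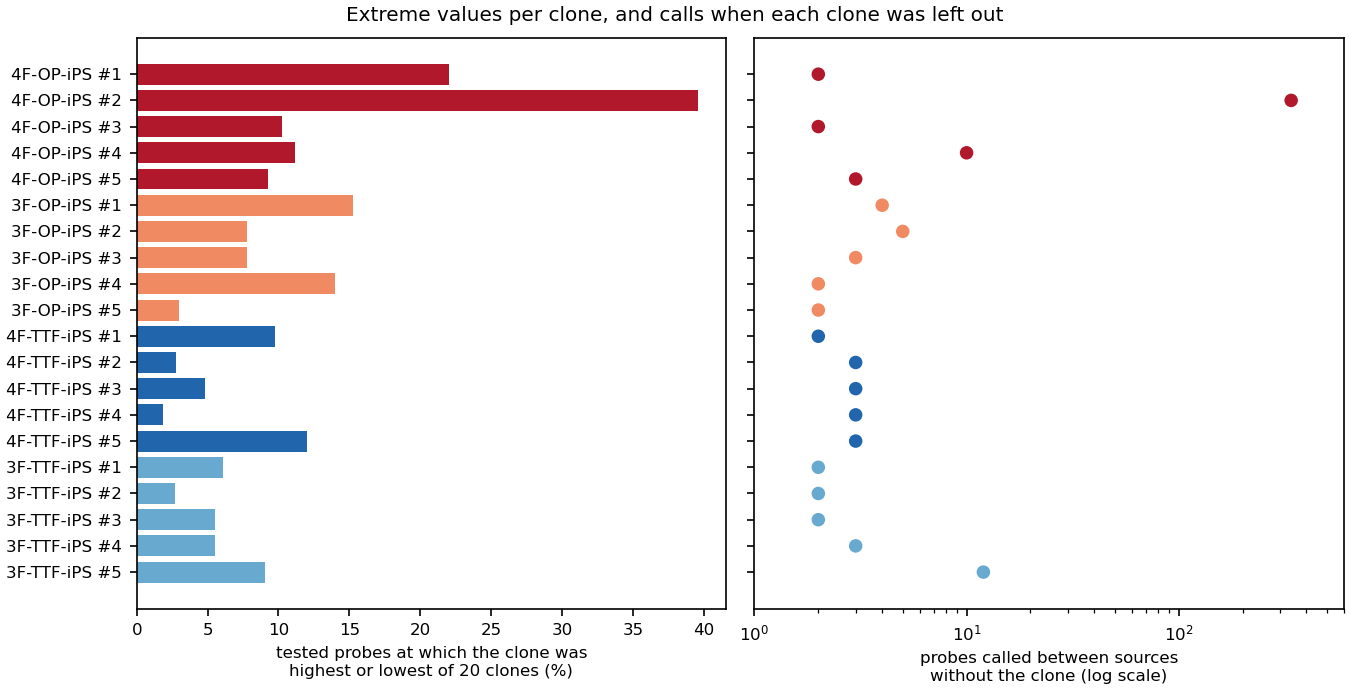
Left, bars are the share of tested probes at which a clone was the highest or the lowest of the 20. Right, points are the probes called between sources when that clone was left out, on a log axis. 4F-OP-iPS #2 stands at 39.6% and 339 probes, and the other clones at up to 22.0% and 12 probes.

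In the list of early differentiation, with markers of endoderm, mesoderm and ectoderm, 4 of 23 tested genes were called lower in OP-iPS clones without 4F-OP-iPS #2 and none higher: Foxa2, Gata4 and Gata6, transcription factors of the endoderm, and Lama1, a laminin of its basement membrane. Over all probes 1.09% were called lower. The median difference of the list was -0.58 without that clone and -0.65 with all clones, against -0.02 over all probes tested in either fit. Foxa2 had 1.03, 2.55 and 4.95 (lowest, median and highest) in the 9 OP-iPS clones and 3.68, 4.29 and 5.15 in TTF-iPS clones, with overlap. Its difference was -1.62 ± 0.31 (SE), or 3.06-fold, with an adjusted p of 0.0120. 4F-OP-iPS #2 had 5.74, above every other clone, and with it the difference in Foxa2 was -1.26 (adjusted p = 0.315).

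Gata4 had -3.40, -2.28 and -0.72 in the 9 OP-iPS clones and -1.74, -0.95 and 0.32 in TTF-iPS clones, with a difference of -1.46 (adjusted p = 0.0221). Gata6 differed by -1.25 and Lama1 by -1.41 (adjusted p = 0.0244 and 0.0337). 4F-OP-iPS #2 had 0.86 in Gata4 and 5.09 in Gata6. With all clones, 6 genes of the list were lower at an unadjusted p under 0.05 and none higher (Sox17, Foxa2, Gata4, Gata6, Evx1 and Lama1), where 6.74% of all probes were lower and 4.6% higher. With Ddx3y as a covariate and without that clone, Foxa2, Gata4, Gata6 and Lama1 differed by -1.67, -1.501, -1.24 and -1.27, with adjusted p of 0.0606 to 0.145. Summed on the linear scale, in multiples of the 75th percentile, the 30 genes of the list on the array reached 37.3, 69.1 and 176 in OP-iPS (lowest, median and highest) and 84.0, 93.5 and 148 in TTF-iPS clones, with overlap. The sums over 30 fibroblast genes overlapped too (154 to 679 and 242 to 558), as did those over 22 genes of blood cells (15.3 to 28.8 and 16.7 to 37.1). In such cultures, fewer differentiating cells and less RNA per cell cannot be told apart. In Foxa2 (-3.00 and -0.97) and Gata4 (-6.10 and -5.29) ES cells were below the clones of both sources. Their sums over the list, 19.4 and 44.6, overlapped with those of OP-iPS clones.

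Fgb, Igfbp1 and Wfdc1 were among the named genes with large differences without 4F-OP-iPS #2. Fgb, the β chain of fibrinogen, had -4.96, -0.98 and 0.42 in the 9 OP-iPS clones, and -0.01, 2.26 and 3.19 in TTF-iPS clones. Only 2 OP-iPS clones exceeded the lowest TTF-iPS clone. The difference was -3.22 ± 0.58 (SE), or 9.32-fold (adjusted p = 0.00987), and with all clones it was -3.08 (adjusted p = 0.0702). Fgb in 4F-OP-iPS #2 was -0.69, on the side of the other OP-iPS clones. Igfbp1, which binds insulin-like growth factors, differed by -2.78 (adjusted p = 0.0430) and was above background in 5 of the 9 OP-iPS clones, and Wfdc1, a secreted protease inhibitor, by -2.61 (adjusted p = 0.0145). Myh6 (-2.32) and Myh7 (-2.23), myosins of heart muscle that were named after their values were seen, were lower as well (adjusted p = 0.0220 and 0.0350).

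Further probes were lower without overlap between the 9 OP-iPS and the 10 TTF-iPS clones: Krt23, a keratin, Foxj3, Ntn3, a netrin, Akap5, an anchor of protein kinase A, Adra2b, an adrenergic receptor, Gja5, Tmem239 and Tfpi, an inhibitor of coagulation. Of all tested probes, 24 were lower (0.0963%) and 5 higher (0.0201%) without overlap. Krt23 had -2.49 to 0.82 in OP-iPS clones, just below the 0.84 to 2.40 of TTF-iPS clones, with a difference of -1.85 (adjusted p = 0.0152). In 4F-OP-iPS #2 Krt23 was 3.72, the highest of the 20 clones. Ntn3 (-1.41), Akap5 (-1.29), Adra2b (-1.25), Tmem239 (-1.21) and Tfpi (-1.19) had adjusted p of 0.0210 or lower. Other tested probes of Tfpi, 1 of them brighter, had overlapping values. The transcript A530016L24Rik had a difference of -3.71 (adjusted p = 0.00667), but it was above background in only 1 of the 9 OP-iPS and 8 of the 10 TTF-iPS clones. Its size therefore has no exact meaning. It was tested only through a TTF-iPS group, where it was high, so that the filter favoured its direction and its p carries no weight. 4F-OP-iPS #2 was at -1.66.

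Other list members called lower without 4F-OP-iPS #2 were, in the bone lineage list, Bmp2 (-1.32), Msx2 (-1.08) and Pth1r (-1.30), a growth factor, a homeobox factor and the receptor of parathyroid hormone. Those are 3 of 19 tested bone genes, where 1.09% of all probes were called lower, and none was called higher. The median difference of the list was -0.14, against -0.02 over all probes. In the other lists, Pdgfra, the receptor absent from the OP sort, was lower by -1.17, Sfmbt2, an imprinted Polycomb gene, by -1.02, Ccn2, a matrix protein, by -1.16, Kit, a receptor of stem cells, by -1.01, and Snai1, a repressor of the epithelial state, by -1.16. Their adjusted p was between 0.0121 and 0.0329 together with the bone genes.

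Hox genes were the list members called higher in OP-iPS clones. Of 36 tested genes of the positional list, 4 were called higher, Hoxc6, Hoxd4, Hoxd8 and Hoxd9, and 1 was called lower, where 0.273% of all probes were called higher and 1.09% lower. The median difference of the list was 0.11, against -0.02 over all probes. Hoxd8 had -4.92, -2.84 and -0.63 in the 9 OP-iPS clones (lowest, median and highest), and -7.34, -5.28 and -3.53 in TTF-iPS clones, of which 5 were above background. A single OP-iPS clone, 4F-OP-iPS #4, lay within the range of TTF-iPS clones. The difference was 2.59 ± 0.53 (SE), with an adjusted p of 0.0152, and its size is not exact because 5 TTF-iPS clones were not above background. In 4F-OP-iPS #2 Hoxd8 was -7.55 and not above background, and with that clone the difference was 2.15 (adjusted p = 0.262).

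Hoxd9 differed by 2.46 (adjusted p = 0.0272), with a second probe at 2.27 (adjusted p = 0.0259), Hoxd4 by 2.06 (adjusted p = 0.0335) and Hoxc6 was 2.82-fold higher (adjusted p = 0.0180). Hoxd9 was above background in 6 TTF-iPS clones and Hoxd4 in 9, so that their sizes, like those with a covariate below, are not exact. In 4F-OP-iPS #2 neither was above background. With Ddx3y as a covariate the sizes were 2.26 for Hoxd4, 2.22 for Hoxd8 and 2.30 for Hoxd9, with adjusted p of 0.0912, 0.0912 and 0.112. The primary cells differed in the same direction, with Hoxd8 at -1.34 in OP and -8.70 in TTF cells, Hoxd9 at -1.11 and -8.61, Hoxd4 at -1.75 and -8.99, and Hoxc6 at 1.29 and -3.97, each from 1 array. PαS-iPS clones were at -6.26 to -3.81 in Hoxd8, within the range of TTF-iPS clones, although the primary PαS array had -0.33.

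**Figure D5:**
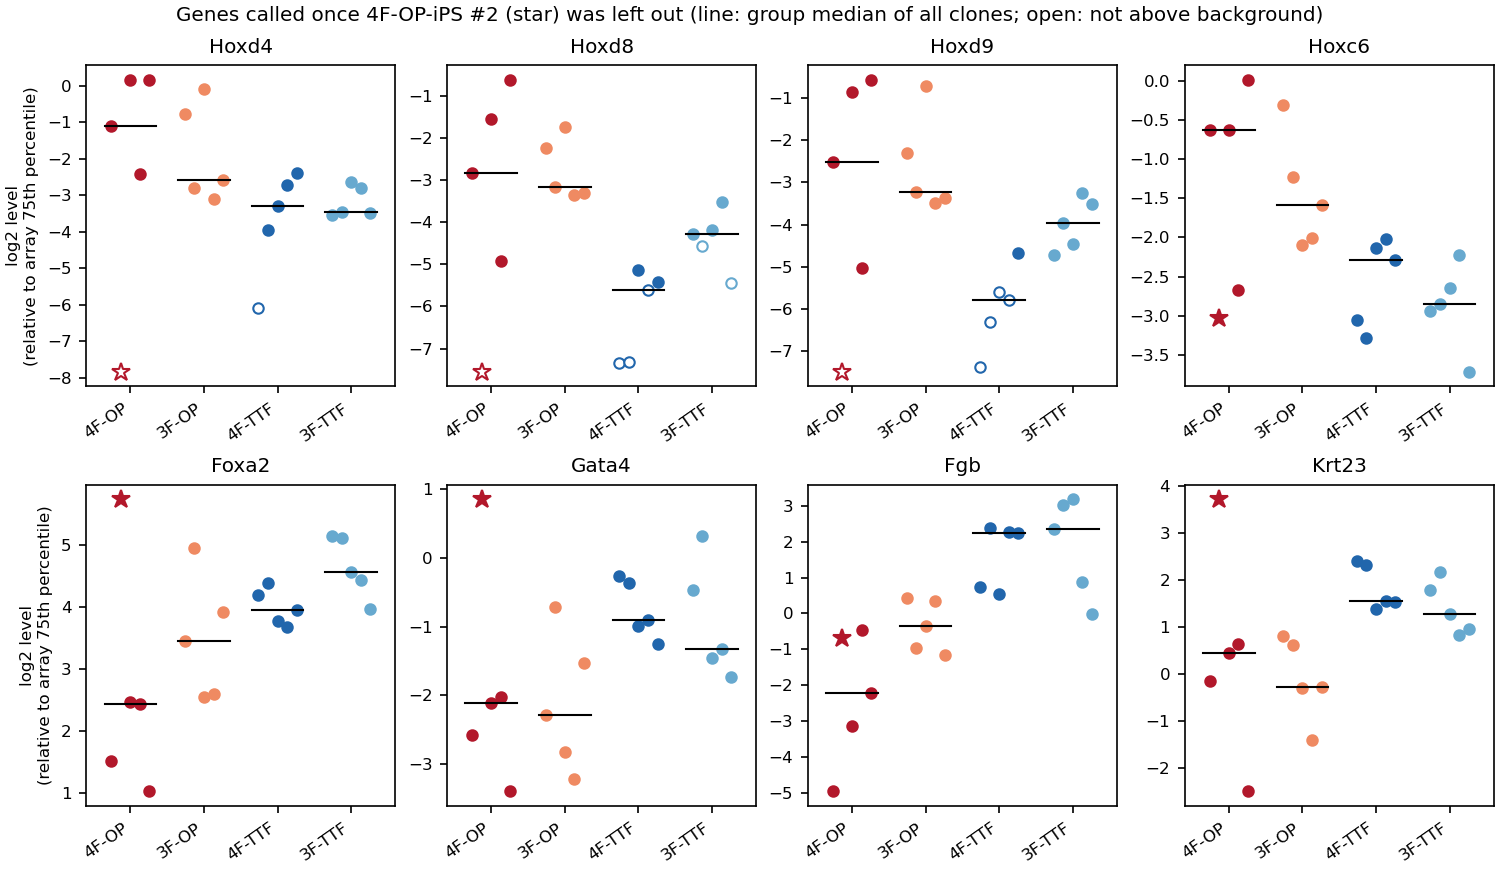
The vertical axes are log2 levels of Hoxd4, Hoxd8, Hoxd9 and Hoxc6 (top), and of Foxa2, Gata4, Fgb and Krt23 (bottom). Points are single clones, lines are medians of all 5 clones of a group, open points were not above background, and the star is 4F-OP-iPS #2, at 5.74 in Foxa2 and not above background in Hoxd8 (-7.55).

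The other genes named as higher without 4F-OP-iPS #2 belong to no single list. Gbp2b, a GTPase induced by interferon, differed by 2.84 (adjusted p = 0.0383) and was above background in all OP-iPS and in 5 TTF-iPS clones, so that the size is not exact. The same holds for Irak3 and Insc (5 TTF-iPS clones each), Cst13 (8), Cd80 (6) and Samd9l (5), which follow. Cst13, a cystatin, differed by 2.24, Irak3, an inhibitor of Toll-like receptor signalling, by 2.23, Insc, which orients the spindle, by 2.17, and Rec8, the cohesin of meiosis, by 2.00. Rec8 had 1.90, 3.59 and 4.70 in the 9 OP-iPS clones and 0.14, 1.40 and 3.14 in TTF-iPS clones, with overlap. Tmem45a (1.82), Cd80, a costimulator of T cells (1.69), Samd9l (1.56) and Tubg2, a γ-tubulin (2.83-fold), followed. Of the list of interferon, MHC class I and chemokine genes, none of 38 tested genes was called, and 11 were higher and none lower at an unadjusted p under 0.05, with a median of 0.11. Over all probes that p was reached by 9.5% in the higher and 13.8% in the lower direction without that clone.

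With all 20 clones no member of any list was called. The counts that follow are at an unadjusted p under 0.05, which 4.6% of all probes reached in the higher and 6.74% in the lower direction. In the pluripotency list the median difference over 33 tested genes was -0.31, and 1 gene, Lin28a, was lower. Of 20 genes of the 2-cell stage and the germline 1 was lower, with a median of -0.52, and of 32 imprinted genes 5 were lower and none higher (Nnat, Impact, Sgce, Sfmbt2 and Asb4), with a median of -0.41. Bone lineage genes had 1 higher and 2 lower of 19 (median -0.24), fibroblast genes 2 lower of 27 (-0.07), epithelial genes 4 lower of 21 (-0.40) and positional genes 4 higher and 4 lower of 36 (-0.01). Immediate early genes had 1 in each direction of 31 (0.04), interferon genes 1 higher of 38 (0.02) and the genes of the sex chromosomes 1 lower of 6 (-0.10). Genes of blood cells (14, median -0.16), of DNA methylation and chromatin (23, 0.01) and of p53, Ink4a/Arf and Myc (21, 0.11) had none in either direction. Over all probes tested the median was -0.02.

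Without 4F-OP-iPS #2 the counts at that p are read against 9.5% higher and 13.8% lower over all probes. The pluripotency list then had 3 higher and 3 lower and a median of -0.10, and the p53, Ink4a/Arf and Myc list 6 higher and 1 lower, with a median of 0.06. The 6 were Trp53, Trp53inp1, Cdkn1a, Cdkn2a, Cdkn2b and Ccnd1, with differences of 0.42 to 1.09, and the lower one was Mycn (-0.48). Trp53 and the Cdkn genes restrain the cell cycle, whereas cyclin D1 and N-Myc promote it, and the smallest adjusted p of the 7 was 0.0777. Imprinted genes had 1 higher and 5 lower (-0.39), genes of the 2-cell stage and the germline 1 lower (-0.35), fibroblast genes 4 higher and 2 lower (-0.05) and epithelial genes 1 higher and 3 lower (-0.21). Immediate early genes had 4 higher and 5 lower (0.08), positional genes 10 and 5 (0.11), bone lineage genes 1 and 6 (-0.14) and blood cell genes 1 and 2 (-0.18). Genes of DNA methylation and chromatin had 2 higher (0.01), and those of the sex chromosomes 2 lower (-0.11).

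The pluripotency factors overlapped between sources. Pou5f1 had -2.04, 3.02 and 4.49 (lowest, median and highest) in OP-iPS and 1.28, 2.88 and 3.72 in TTF-iPS clones, with a difference of 0.02 (adjusted p = 0.992). Nanog had -8.31, 1.48 and 3.25 against -6.12, 1.25 and 2.41, with a difference of -0.86 (adjusted p = 0.828), and Sox2 -8.29, 1.76 and 3.06 against -5.33, 1.71 and 2.71, with a difference of -1.37 (adjusted p = 0.725). The lowest values of Nanog and Sox2 are those of the clones named above. Zscan4c, which the array lists as Gm397 and which marks a 2-cell-like state, had -4.90 to 3.91 against -5.36 to 3.70 and differed by -0.48 (adjusted p = 0.890). Leaving out 4F-OP-iPS #4 moved Nanog to -1.495 and Sox2 to -1.97, and leaving out 4F-OP-iPS #3 moved them to -0.135 and -0.637. Without 4F-OP-iPS #2, Pou5f1 differed by 0.54 (adjusted p = 0.329) and Nanog by -0.72. The direction of Pou5f1, Sox2, Nanog and Zscan4c turned under some alternatives.

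Klf4, like Pou5f1 and Sox2 a transgene of all clones, had 3.05, 5.10 and 6.31 in OP-iPS and 5.16, 5.49 and 5.78 in TTF-iPS clones. The wider range enclosed the narrower one, with a difference of -0.59 (adjusted p = 0.50), and of -0.78 without 4F-OP-iPS #2 (adjusted p = 0.107). The part of transgene RNA in the levels of these 3 genes was not tested. Myc differed by 1.08 at the stop-codon probe (adjusted p = 0.566). Meg3 (Gtl2) and Rian, maternally expressed RNAs of the imprinted Dlk1-Dio3 region, differed by -1.72 and -1.06 (adjusted p = 0.511 and 0.563). Meg3 was not above background in 4F-OP-iPS #2 (-7.65), and in the other 19 clones it was -1.68 to 4.75. Rian was at -7.67 in that clone. Without it the differences were -0.88 for Meg3 and -0.62 for Rian (adjusted p = 0.372 and 0.528).

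The levels of the called probes were also read in cells outside the comparison. Of the 279 probes called without 4F-OP-iPS #2 that were above background in at least 1 of the primary OP and TTF arrays, 116 (41.6%) differed between the primary cells in the same direction as between the clones, against 51.5% of all tested probes. By direction the share was 55.4% of 65 probes higher and 37.4% of 214 probes lower in OP-iPS clones, where 54.0% of all tested probes were higher and 46.0% lower in the primary OP than in the primary TTF array. Of the 271 lower probes, ES cells were nearer to OP-iPS clones in 237 and below both sources in 218, and PαS-iPS clones were nearer to TTF-iPS clones in 187. Over all 13359 probes with a negative difference, called or not, those shares were 53.3%, 47.7% and 57.2%. Of the 68 higher probes, ES cells were nearer to OP-iPS clones in 27 and to TTF-iPS clones in 41, and PαS-iPS clones were nearer to TTF-iPS clones in 63. Over all 11569 probes with a positive difference ES cells were nearer to TTF-iPS clones in 46.6%, and PαS-iPS clones in 58.2%. The called probes were chosen by the levels of the OP- and TTF-iPS clones that enter these counts, which are given without a test. With all clones, 1 of the 2 called probes (50%) had the same direction in the primary cells, namely Foxj3 (-4.73 in OP and -4.28 in TTF cells), and Gja5 had the opposite one (-2.84 and -3.41). The ES and primary arrays were scanned in other sessions than the clones.

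By the squared correlation with the mean of both ES arrays (R²), the measure of likeness to ES cells, the sources did not differ beyond their spread. R² was 0.825, 0.873 and 0.912 (lowest, median and highest) in OP-iPS clones and 0.833, 0.872 and 0.890 in TTF-iPS clones, and the ranges overlapped. The difference in means was -0.00116 (permutation test over 20 clones within factor number, two-sided, 100000 resamples, p = 0.902). The SD was 0.0239 in OP-iPS and 0.0164 in TTF-iPS clones, and it was 0.0188 in OP-iPS without 4F-OP-iPS #2 and 0.00979 in TTF-iPS without 4F-TTF-iPS #1. The spread between clones of a group was wider for OP-iPS as well, with a median SD per probe of 0.470 for 4F (0.347 without #2) and 0.331 for 3F clones of OP cells, and of 0.280 for 4F and 0.243 for 3F clones of TTF. These spreads are given without a test.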

How the data were processed

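RNA of 35 samples was measured on 1-colour Agilent arrays. The deposited scanner files hold intensities of each spot, from which the authors' Feature Extraction software had subtracted the background, with no scaling between arrays. A second deposited table, of log2 values that the authors made in GeneSpring GX, has a median of 0 in every probe and was used as an alternative (its column medians are -0.63 to 0.25, and it correlated with the values used here at 0.999 or more on each array). Control spots and outlier flags were left out and spots of a probe averaged, giving 41174 probes, and log2 intensities were set against the 75th percentile of each array. Probes well above background on all 5 arrays of at least 1 of the 4 groups were tested (24928). A dim probe could pass through the groups where it was high, which favours that direction. The fit used limma 3.58.1 in R 4.3.3 (lmFit, eBayes), with source and factor number as terms, and Benjamini-Hochberg adjustment over all of them. Separate 4F and 3F contrasts and their difference came from a fit of 4 group means. The fit was tested on simulated data. Permutations and summaries used scipy 1.17.1, pandas 2.3.3 and numpy 2.4.6 under Python 3.11.15. Gene symbols came from accessions and names on the array through a RefSeq table (32719 probes, 8455 without a symbol), and positions are those of the array annotation (mouse build mm7).

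Genes with a symbol were named by rule: up to 12 in each direction with the largest change among called probes, first those without overlap between sources, called members of the gene lists, and 11 genes in every case (Pou5f1, Sox2, Nanog, Zscan4c, Klf4, Myc, Meg3, Rian, Xist, Ddx3y and Eif2s3y). A gene is represented by its brightest probe on average, unless another of its probes was called. The clones, lists and tests were chosen with earlier results of these data known. Alternatives were normexp background correction (offset 50), quantile normalization, the authors' table, other filters on dim probes, a fit of 7 groups, no factor number, array weights, slides (fixed or random) and clone numbers as blocks, no fold minimum and each clone left out. Covariates for Ddx3y and Myc, the omission of 3F-OP-iPS #1 and #3, and all fits without 4F-OP-iPS #2 other than leaving it out were added after the data were seen. Teratoma, methylation and RT-PCR data were not analysed here, and 1 called list member is not reported here.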

Additional observations from a re-analysis of the deposited data

Results flagged for a closer look

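Within each group of 5 clones the highest and the lowest value were set against the rest by Dixon's criterion, in 148 checks, 80 of them on the medians of all 20 chromosomes and 68 on the genes described and R². In 14 of the chromosome checks and 10 of the others a clone stood apart, where chance alone gives about 1 in 20. In 4F-OP-iPS #4, Xist was high (0.35) and Ddx3y (-8.44) and Eif2s3y (-8.33) were low, and in 4F-TTF-iPS #3 Xist was low (-7.33) and Ddx3y (-0.63) and Eif2s3y (1.41) were high. In 4F-OP-iPS #2 the median deviation was apart on chromosomes 4 (-0.64), 14 (0.59), 10 (0.0739) and 16 (0.0659), as was Meg3 (-7.65). Fbxo44 was low in 4F-OP-iPS #1 (-4.35), Rragd in 3F-OP-iPS #2 (-3.62) and Sox2 in 4F-TTF-iPS #1 (-5.33). Further chromosome medians apart from their group were those of chromosome 1 in 4F-OP-iPS #1 (0.37), of chromosome 11 in 3F-OP-iPS #4 (0.239), 3F-TTF-iPS #5 (0.235) and 4F-TTF-iPS #3 (0.0168), and of chromosome 12 in 3F-TTF-iPS #3 (0.14) and 3F-OP-iPS #3 (-0.0423). Others were chromosome 16 in 3F-OP-iPS #1 (-0.0401), chromosomes 5 (0.0902) and 9 (-0.0433) in 4F-TTF-iPS #5 and chromosome 4 in 3F-TTF-iPS #1 (0.0118).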

How the results depend on the processing

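The 2 calls between all OP- and TTF-iPS clones became 1 with only probes above background on all 20 arrays. They became 6 in a fit of 7 groups, 292 with array weights and 5 without a fold minimum. Without 3F-OP-iPS #1 and #3 they became 7, and 29 without the 3 clones low in Sox2 and Nanog and 4F-OP-iPS #2. Leaving out each clone gave 2 to 339. The calls made without 4F-OP-iPS #2 (339) became 154 with normexp, 720 with no filter on dim probes, 130 with the slide as a random block, 43 with Ddx3y as a covariate, 168 without 3F-OP-iPS #1 and #3, 29 without the 3 clones low in Sox2 and Nanog, and 167 to 537 with each further clone left out. For 4F clones the single call was lost (0) with quantile normalization, with normexp and without the 3 low clones, and leaving out each clone gave 0 to 330. For 3F clones the 2 calls became 0 with normexp, 0 without 3F-OP-iPS #1 and #3, 5 with no filter and 1 without the 3 low clones, and 0 to 2 with each clone left out. The cause of these changes was not tested.

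Clone numbers are not stated to mark a pairing, and 3 of 10 pairs of the same number had a correlation over 0.1. With the clone number as a replicate block 14 probes were called in all clones, 0 in 4F and 1 in 3F clones, and 262 without 4F-OP-iPS #2. Rragd then had an adjusted p of 0.0554, and Foxj3, Cap1 and Gja5 stayed under 0.05.

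The directions of Foxj3, Cap1, Gja5, Fbxo44 and Rragd held in each alternative. With the slide as a fixed block the source difference rests on the 1 slide that held both sources, with its single TTF-iPS clone. Foxj3 then had -2.38, Cap1 -1.17 and Gja5 -1.04. Nanog turned to 1.78 with the slide as a fixed block, 0.0343 without the 3 low clones, 0.72 without those and 4F-OP-iPS #2 and 0.25 with Myc as a covariate. Sox2 turned to 0.97 with the slide block and 0.37 without the 4 clones. Zscan4c turned to 0.33 with array weights, 2.51 with the slide block, 0.46 without the 4 clones, 0.74 with Myc as a covariate and 0.18 without 3F-OP-iPS #1 and #3. Xist turned to 1.04 with Ddx3y as a covariate. Pou5f1 turned to -0.0764 without the 3 low clones, to -0.0368 without 3F-OP-iPS #1 and #3, and lay between -0.23 and 0.54 with each clone left out. The difference in R² was -0.00710 to 0.00387 with each clone left out. The share of called probes with the same sign in the primary cells was 66.7% with quantile normalization, of 3 probes.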
